A study of Mus musculus with 3 samples.

Results

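Receptors for amines, purines, kinins, thrombin-type proteases and vasoactive peptides were described in sorted mouse leptomeningeal cells. The members were the 74 gene rows, of 46983 in the count table, whose symbols name a serotonin, histamine, adrenergic, muscarinic, dopamine, adenosine, P2Y, P2X, bradykinin, protease-activated, endothelin, angiotensin or natriuretic peptide receptor, together with Calcrl and its partners Ramp1, Ramp2 and Ramp3. Bulk RNA sequencing was done on 3 libraries, numbered 1 to 3 as in the labels, all of 1 group: the pia-enriched fraction of leptomeninges from vehicle-treated mice. The leptomeninges are the thin inner membranes over the brain, formed mainly by fibroblasts. The labels used here do not give the strain, sex or age of the mice, what the vehicle served for, or whether animals were pooled. They name no sort marker and do not say that the libraries came from separate animals, so p-values measure only the spread between these 3 samples, which may be technical. No treatment is compared. In bulk RNA, fewer cells of a type and less RNA per cell cannot be told apart.

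These receptors let a cell read transmitters and local mediators. Most are G protein-coupled: Gq raises calcium through phospholipase C, Gs raises cyclic AMP through adenylyl cyclase and Gi lowers it. P2X receptors and the serotonin receptors Htr3a and Htr3b are ion channels. Npr1 and Npr2 are guanylyl cyclases, and Npr3 removes natriuretic peptides. In the meninges such ligands come from vessels, nerves, mast cells and the meningeal cells themselves.

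Gene counts ranged from 21002860 in library 1 to 28704952 in library 2. A count of 0 allows up to 3 counts, or 0.152, 0.101 and 0.116 CPM (counts per 1000000 of the scaled library total) in libraries 1, 2 and 3, and these limits cover counting error only. The labelled cells were checked against defining markers: 8 fibroblast genes summed to between 29958 and 34912 CPM. The 8 leptomeningeal fibroblast genes summed to between 1021 and 1461 CPM, most of it from Slc47a1, at 845, 1238 and 1053 CPM. All 8 had a mean of at least 1 CPM, but so did all 10 mural and all 10 endothelial genes. This threshold therefore cannot separate cell types. Other cells were present too. Mural genes summed to 3030 to 5310 CPM and Schwann cell genes to 2209 to 3620 CPM, while 10 endothelial genes reached only 101 to 138 CPM. Choroid plexus genes summed to 113 CPM in library 1, against 3262 and 4949 CPM in libraries 2 and 3. Library 1 also stood apart by base composition, as given below.

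Of the 74 receptor genes, 42 (56.8%) had a mean of at least 1 CPM, against 30.2% of all gene rows and 60.7% of protein-coding rows. The receptors were therefore detected about as often as protein-coding genes in general. A level of at least 100 CPM was reached by 3 of them, Ednra, Ramp2 and Npr3, at least 10 CPM by 13, and 29 lay between 1 and 10 CPM. The 12 vasoactive peptide genes all had at least 1 CPM, as did 15 of 19 purine receptors. Only 12 of 37 amine receptors did, and 6 amine receptors had no count in any library. The members summed to 688, 862 and 901 CPM in libraries 1, 2 and 3, of which Ednra, Ramp2 and Npr3 held 55.9%, 55.3% and 49.7%.

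Levels of different genes were compared as CPM divided by kilobases of exon (RPKM), with all annotated exons of a gene joined. On this scale the vasoactive peptide genes held 69.6% ± 3.80 (SD, n = 3) of the summed level of the members. Purine receptors held 12.6% ± 4.31, amine receptors 9.20% ± 0.73, protease receptors 7.70% ± 1.26 and kinin receptors 0.86% ± 0.31. By signalling class, Gq-coupled receptors held 39.9% ± 2.53 and the accessory proteins Ramp1 to Ramp3 25.4% ± 4.39. Single genes made up much of some classes. Ednra held 55.8%, 43.8% and 42.4% of the Gq level in libraries 1, 2 and 3, and Ramp2 82.6%, 81.9% and 76.5% of the accessory level. P2ry12 held 4.84%, 7.74% and 46.4% of the Gi level. Gs-coupled receptors held 10.0% ± 2.90, Npr3 as the clearance receptor 6.44% ± 2.79, Gi-coupled receptors 6.08% ± 2.73, cation channels 5.67% ± 0.98 and guanylyl cyclases 5.65% ± 2.51. With the median length of coding transcripts in place of all exons, Gq-coupled receptors held 26.0% and accessory proteins 39.6%, so the order of these classes depends on the gene length used. Among the 10 highest genes per kilobase, 7 of 9 neighbours in rank had overlapping ranges over libraries. Ednra and Npr3 were neighbours without overlap.

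**Figure D1:**
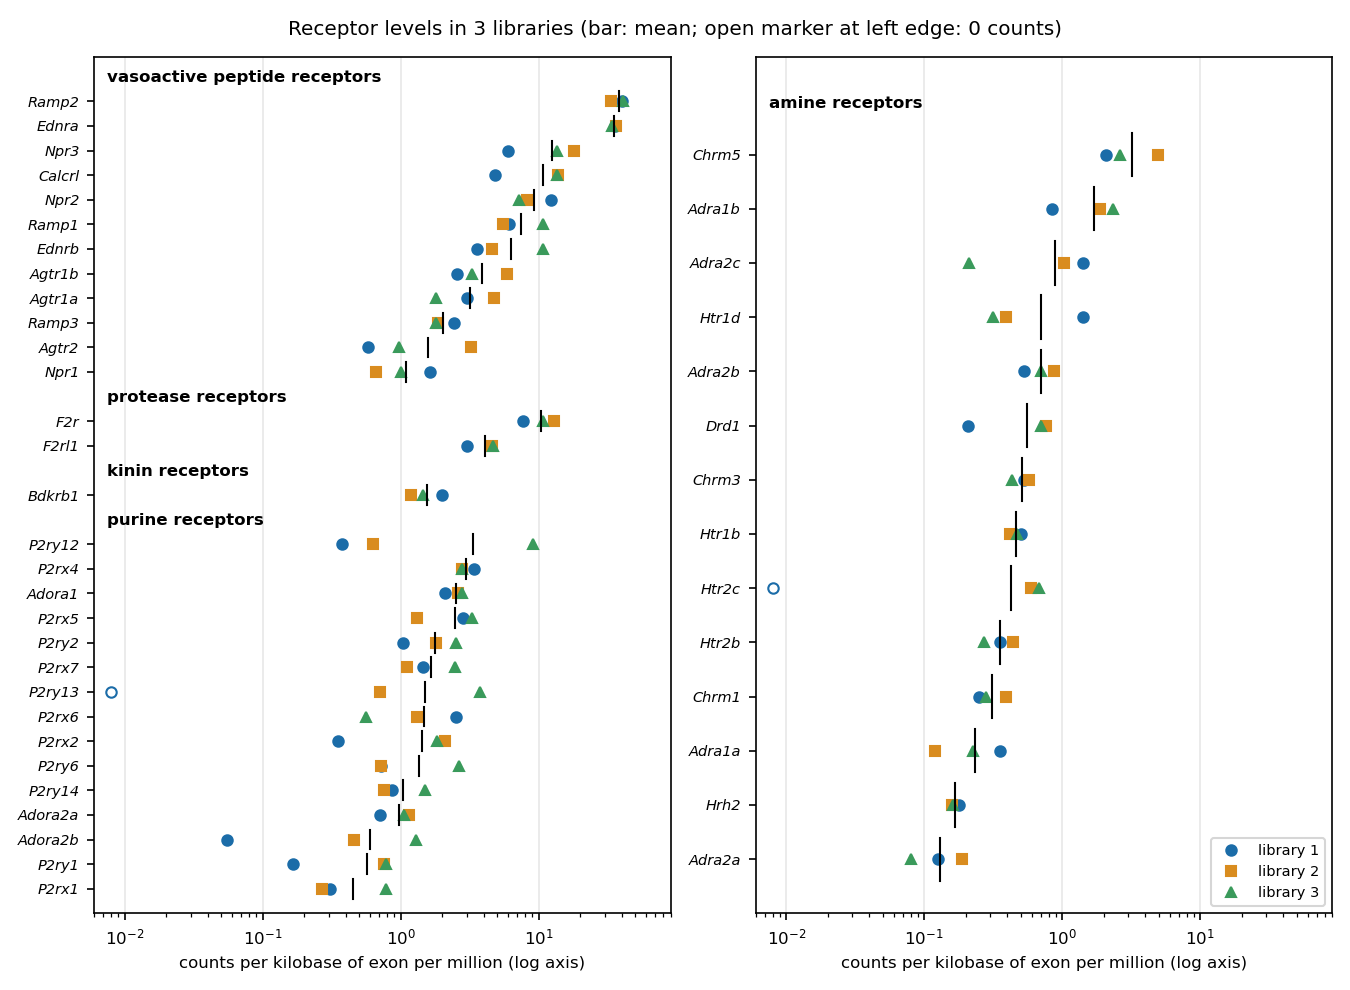
Level of the receptor genes reported with a mean of at least 1 CPM or past the count filter, in RPKM on a log axis, for libraries 1 (circles), 2 (squares) and 3 (triangles), with the mean as a bar. Ramp2 and Ednra lie above all others, P2ry12, P2ry13 and Htr2c spread most widely, and open markers show 0 counts.

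Ednra encodes the endothelin A receptor, a Gq-coupled receptor of smooth muscle and mesenchymal cells. It was the highest member by CPM, at 196, 198 and 186 CPM in libraries 1, 2 and 3 (193 ± 6.36, SD, n = 3), or 35.3 ± 1.16 RPKM. This was higher than in 90.1% of the genes past the count filter. Its highest library exceeded its lowest by 1.06-fold, the smallest range of the 42 members past the filter. Ednra (ENSMUSG00000031616.7) lies on chromosome 8, 77663031 to 77724464, minus strand, of GRCm38. Ednrb, the endothelin B receptor of endothelial and glial cells, was at 15.2, 19.5 and 45.7 CPM and was highest in library 3. Ednra exceeded Ednrb per kilobase by 3.29, 2.95 and 1.65 on the log2 scale (2.63 ± 0.86). Schwann cell genes, at 2500, 2209 and 3620 CPM in sum, and mural genes, at 3541, 3030 and 5310 CPM, were also highest in library 3. So were endothelial genes, at 129, 101 and 138 CPM, whereas astrocyte genes, at 727, 604 and 495 CPM, were lowest there. Most of the astrocyte sum came from Gjb6, at 679, 559 and 419 CPM, and the other astrocyte genes listed were highest in library 3. Unlike Ednrb, the Schwann, mural and endothelial sums were lower in library 2 than in library 1. Single genes highest in library 3 were 7 of 8 Schwann, 9 of 10 mural, 5 of 10 endothelial and 5 of 6 astrocyte genes. The part of these cells in the level of Ednrb was not tested.

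Among endothelin genes, Edn3 was the most abundant ligand, at 153, 104 and 86.0 CPM. Edn1, the endothelial isoform, was at 1.67, 1.28 and 3.66 CPM, and Edn2 at 5.56, 4.8 and 1.81 CPM. Ece1, which cleaves the precursor to the active peptide, was steady at 203, 236 and 212 CPM. The libraries thus held RNA for a ligand, its converting enzyme and mainly the A receptor. Endothelin 3 is known to bind the A receptor less tightly than the B receptor.

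The natriuretic peptide receptors differed in level and in spread. Npr3, the clearance receptor without a cyclase domain, was at 56.0, 168 and 128 CPM (117 ± 56.7), lowest in library 1. Npr2, the cyclase receptor for C-type natriuretic peptide, was at 57.1, 38.2 and 33.5 CPM, highest in library 1. Npr1, the receptor for the atrial and B-type peptides, was at 7.79, 3.19 and 4.78 CPM. Per kilobase Npr2 exceeded Npr1 by 3.0 ± 0.38 and Npr3 exceeded it by 3.34 ± 1.40 on the log2 scale, each in 3 of 3 libraries. Of the ligands, Nppc was at 55.7, 45.4 and 30.4 CPM, and Nppa and Nppb had at most 1 count in any library. Nppc encodes the C-type peptide that Npr2 binds.

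Promoters of Ednra and Npr3 are shown because, of the 3 most abundant members, Ednra was the steadiest and Npr3 the most uneven. Each sequence holds the 250 bases before the RefSeq start on GRCm38.p6, 5′ to 3′, at chr8:77724453-77724702 (minus strand) for Ednra and chr15:11907372-11907621 (minus strand) for Npr3. Capitals mark matches, on either strand, to any of 5 motifs. The GC box was searched as the letters GGGCGG. The TATA box was searched as the letters TATAAA. The CCAAT box was searched as its own 5 letters. For the purine-rich core bound by ETS factors the letters were GAGGAA. For the core of a cAMP response element they were TGACG. No motif overlaps another in the matches shown.
Ednra: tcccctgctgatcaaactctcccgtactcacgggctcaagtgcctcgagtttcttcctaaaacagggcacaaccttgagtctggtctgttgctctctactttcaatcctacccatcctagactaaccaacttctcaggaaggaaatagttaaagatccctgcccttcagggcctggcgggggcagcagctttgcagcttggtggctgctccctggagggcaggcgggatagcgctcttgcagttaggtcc
Npr3: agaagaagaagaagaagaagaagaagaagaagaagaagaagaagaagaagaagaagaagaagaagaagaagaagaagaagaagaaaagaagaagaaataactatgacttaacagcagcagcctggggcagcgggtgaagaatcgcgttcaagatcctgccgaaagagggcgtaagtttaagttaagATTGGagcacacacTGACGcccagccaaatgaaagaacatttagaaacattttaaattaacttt
Ednra held none of these letters in the window. Npr3 held a CCAAT box on the opposite strand starting 64 bases before the start and a cAMP response element core starting 50 bases before it. Such matches are common and are not sites of measured binding: over the first listed promoter of 27025 genes, 34.5% held CCAAT and 17.9% held TGACG. The Npr3 window opens with a long simple repeat, and its GC content was 38.8%, against 54.8% for Ednra.

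Calcrl encodes the receptor shared by calcitonin gene-related peptide (CGRP) and adrenomedullin, and the RAMP proteins decide which of them it binds. Ramp2, which makes an adrenomedullin receptor, was at 133, 111 and 134 CPM (126 ± 13), or 38.1 ± 3.93 RPKM. Calcrl was at 23.4, 67.8 and 66.6 CPM, lowest in library 1. Ramp1, which makes the CGRP receptor, was at 18.4, 16.8 and 32.2 CPM, and Ramp3 at 3.34, 2.59 and 2.51 CPM. Per kilobase Ramp2 exceeded Ramp1 by 2.40 ± 0.42 and Ramp3 by 4.17 ± 0.21 on the log2 scale, in 3 of 3 libraries. The annotated Ramp2 exons share 1103 bases with the neighbouring gene Vps25 on the same strand. With the median length of coding transcripts, Ramp2 was at 121 RPKM, above Ednra at 53.3, Npr3 at 48.1 and Ramp1 at 26.3 RPKM. Of the ligands, Adm was at 125, 66.4 and 49.8 CPM and was highest in library 1. Calca, which encodes calcitonin and CGRP, was at 16.1, 28.7 and 58.3 CPM and was highest in library 3. Calcb was at 3.44, 1.18 and 14.5 CPM.

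The angiotensin receptors were low. Agtr1a was at 8.39, 13.2 and 5.01 CPM, and Agtr1b at 5.51, 12.6 and 7.05 CPM. Both encode type 1 receptors with closely similar coding sequences, so reads that match both may have been left out of their counts. Agtr2, the type 2 receptor, was at 1.92, 10.7 and 3.24 CPM. All 3 genes were highest in library 2. Agt, the precursor, was at 5.06, 7.66 and 6.44 CPM and Ace, the converting enzyme, at 43.6, 40.5 and 35.5 CPM, while Ren1 had a mean under 1 CPM.

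**Figure D2:**
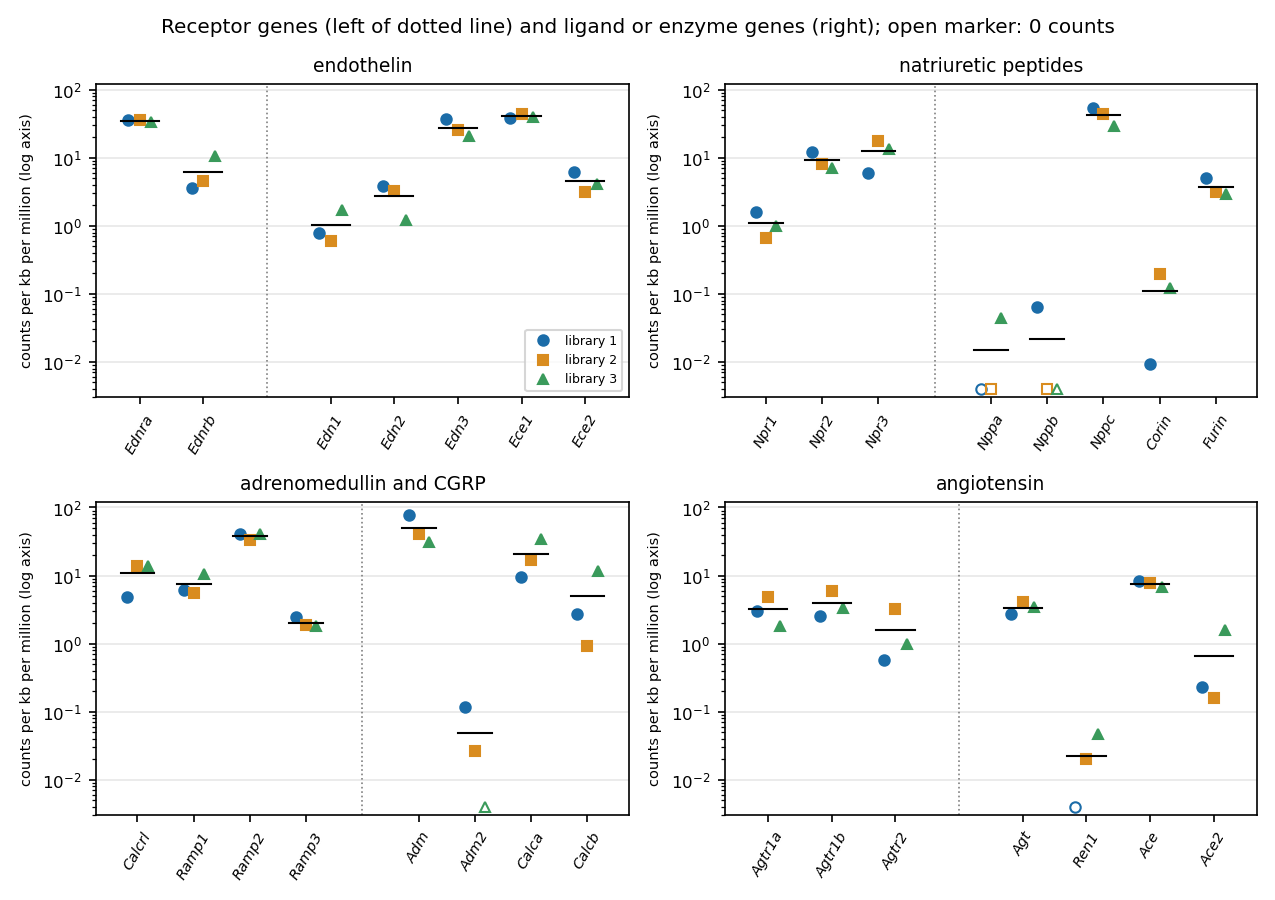
Receptor genes and ligand or enzyme genes of 4 vasoactive peptide families, in RPKM on a log axis, by library, with the mean as a bar. Edn3, Nppc and Adm are the most abundant ligand genes of their families, and Nppa, Nppb, Adm2 and Ren1 are at or near 0.

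Of the protease-activated receptors, which signal after a protease cuts their outer end, F2r and F2rl1 were detected. F2r, the thrombin receptor PAR1, was at 25.7, 42.7 and 35.9 CPM, and F2rl1, the trypsin and tryptase receptor PAR2, at 8.29, 12.6 and 12.8 CPM. The ratio of these genes was the steadiest of the pairs compared, with F2r higher per kilobase by 1.32 ± 0.14 on the log2 scale. F2rl2 and F2rl3 had means of 0.124 and 0.195 CPM. Of the kinin receptors, the inducible Bdkrb1 was at 2.83, 1.71 and 2.08 CPM. Bdkrb2, usually the constitutive receptor, had 0, 5 and 9 counts. Bdkrb1 was higher in 3 of 3 libraries, with Bdkrb2 minus Bdkrb1 at -3.52 ± 0.74 on the log2 scale, or -1.27 with a pseudocount of 1 in place of 0.1.

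Among adenosine receptors, the Gi-coupled Adora1 led at 12.2, 15.0 and 16.1 CPM. The Gs-coupled Adora2a was at 2.17, 3.49 and 3.24 CPM. Adora2b, also Gs-coupled, was uneven, with 2, 25 and 62 counts in libraries 1, 2 and 3, which is 0.101, 0.840 and 2.39 CPM. Per kilobase Adora1 exceeded Adora2b in 3 of 3 libraries, and Adora2a exceeded Adora2b in libraries 1 and 2 and was lower in library 3. In CPM Adora2a was the higher of these in 3 of 3 libraries. Adora3 had a mean of 0.227 CPM.

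P2X channels, opened by ATP, were led by P2rx4 at 23.7, 19.4 and 19.4 CPM. P2rx7, a channel of low ATP affinity that is abundant in macrophages, was at 8.60, 6.62 and 14.6 CPM. P2rx5 was at 6.78, 3.12 and 7.86 CPM. P2rx6 was at 10.0, 5.27 and 2.24 CPM, highest in library 1, and shares 554 bases of exon with Slc7a4 on the other strand. P2rx2 was at 0.910, 5.34 and 4.70 CPM and P2rx1 at 0.809, 0.705 and 2.04 CPM. P2rx3, known from sensory neurons, had a mean of 0.406 CPM.

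P2Y receptors bind nucleotides and were the family in which the libraries differed most. P2ry14, the UDP-glucose receptor, was at 9.51, 8.43 and 16.7 CPM, and P2ry2, the ATP and UTP receptor, at 4.05, 7.09 and 9.87 CPM. P2ry6, the UDP receptor, was at 2.07, 2.08 and 7.63 CPM and P2ry1, an ADP receptor, at 0.708, 3.26 and 3.35 CPM. P2ry12, the ADP receptor of microglia and platelets, was at 0.961, 1.61 and 23.1 CPM, so that library 3 held nearly all of its counts. P2ry13, a related ADP receptor, was at 0, 1.78 and 9.56 CPM. Against the limit of 3 counts in library 1, P2ry13 was at least 63.0-fold higher in library 3. P2ry10 and P2ry4 had means of 0.243 and 0.219 CPM.

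Of the receptors for noradrenaline and adrenaline, Adrb1 had 2, 15 and 7 counts, and Adrb3 had none. The Gq-coupled Adra1b was at 2.83, 6.38 and 7.90 CPM and Adra1a at 3.08, 1.04 and 1.97 CPM. The Gi-coupled Adra2b was at 2.12, 3.49 and 2.81 CPM and Adra2c at 4.85, 3.56 and 0.732 CPM, so Adra2c was lowest in library 3. Adra2a and Adra1d had means of 0.633 and 0.037 CPM.

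Muscarinic receptors were represented by 3 Gq-coupled genes. Chrm5 was at 3.34, 7.86 and 4.20 CPM, Chrm3 at 3.29, 3.59 and 2.70 CPM and Chrm1 at 1.62, 2.55 and 1.81 CPM. The Gi-coupled Chrm2 and Chrm4 had means of 0.141 and 0.136 CPM. Drd1 was at 0.759, 2.79 and 2.54 CPM, Drd3 and Drd4 had means of 0.285 and 0.030 CPM, and Drd2 and Drd5 had no count.

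Serotonin receptors were mostly under the threshold, with 3 of 14 genes at a mean of at least 1 CPM. Htr1b, a Gi-coupled receptor, was steady at 2.38, 1.98 and 2.24 CPM. Htr1d, the other Gi-coupled receptor above the threshold and known from sensory fibres of the meninges, was at 4.5, 1.24 and 1.0 CPM, highest in library 1. Htr2c, abundant in choroid plexus epithelium, had 0, 165 and 165 counts, or 0, 5.54 and 6.36 CPM. Against the limit of 3 counts in library 1 it was at least 36.5-fold higher in library 2 and at least 41.9-fold higher in library 3. Htr2b had a mean of 0.759 CPM. Htr2a, Htr3a, Htr3b, Htr5a, Htr5b, Htr6 and Htr7 had means between 0.017 and 0.276 CPM, and Htr1a, Htr1f and Htr4 had no count. No histamine receptor reached a mean of 1 CPM. Hrh2 was closest, at 1.06, 0.941 and 0.963 CPM and under the threshold by little, with Adora2b at 1.11 CPM the nearest above it. Hrh1 had 1, 0 and 44 counts, Hrh4 had 0, 0 and 6 counts and Hrh3 had 3, 0 and 1.

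The serotonin-making enzyme Tph1 was abundant beside these low receptors, at 107, 133 and 170 CPM. Mast cell genes summed to 10.6, 34.4 and 90.4 CPM, led by Tpsb2, Cpa3 and Cma1. Tph1 is also a gene of the pineal gland. A list of 10 pineal genes, written after the level of Tph1 was known, summed to 229, 248 and 236 CPM. Sag was at 81.4, 94.9 and 92.6 CPM, Rom1 at 69.0, 50.9 and 51.6 CPM and Neurod1 at 40.2, 44.7 and 38.8 CPM. Crx was at 10.5, 16.0 and 14.6 CPM, Prph2 at 11.3, 10.6 and 10.8 CPM and Lhx4 at 10.5, 11.4 and 9.40 CPM. Pde6b was at 3.14, 18.4 and 15.1 CPM. Aanat, at 2.68, 0.437 and 2.85 CPM, and Gngt1, with 0, 10 and 7 counts, were lower. Asmt, the last enzyme of melatonin synthesis, had 1 count in all. Of the members, Adra1b and Adrb1 are known from the pineal gland. The part of mast or pineal cells in the levels of Tph1, Adra1b and Adrb1 was not tested.

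In all, 17 pairs of receptors within a family were compared per kilobase, and 13 kept the same sign in 3 of 3 libraries. For each of the 13 the p-value was 0.25 by an exact two-sided permutation of signs, which is the smallest value that 3 libraries allow, and 0.327 after Benjamini-Hochberg adjustment over the 17 pairs. No pair could therefore pass a threshold. The 4 pairs of mixed sign were Adora2a and Adora2b, Adra2a and Adra1a, P2ry14 and P2ry6, and Hrh1 and Hrh2. Adra2a was below Adra1a in 3 of 3 libraries in CPM and with coding transcript length, by -1.48 and -1.18 on the log2 scale.

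**Figure D3:**
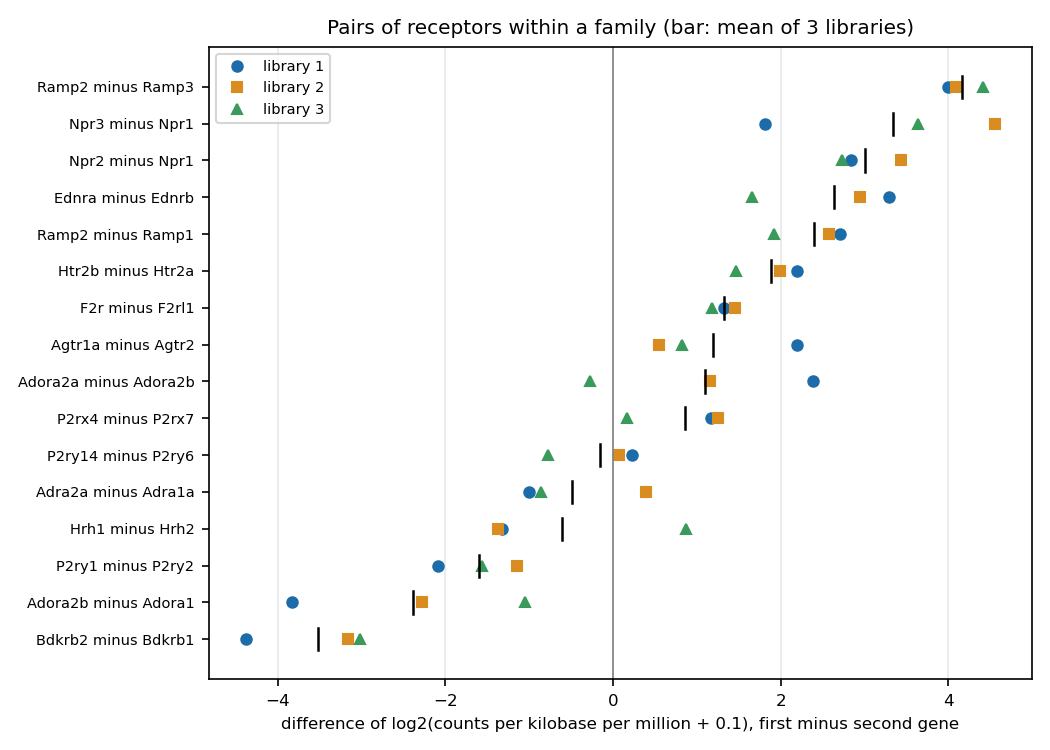
Difference in log2 level per kilobase between the genes of the receptor pairs plotted, by library, with the mean as a bar. Ramp2 minus Ramp3, at 4.17, has the highest mean plotted and Bdkrb2 minus Bdkrb1, at -3.52, the lowest.

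Variation between libraries was tested with edgeR's goodness-of-fit test over 14409 genes past the count filter, of which 0.437% were called at an adjusted threshold of 0.05. Of the 74 members 42 passed the filter, and 1 of them, P2ry12, was called (edgeR adjusted p = 0.000181, Benjamini-Hochberg). Without library 3, where 0.0816% of all tested genes were called, it was not, with an edgeR adjusted p of 0.998 and a mean of 1.27 CPM in place of 8.57. Adora2b, P2ry13 and Htr2c had means of at least 1 CPM but too few counts in library 1 to be tested, whereas Hrh2, Htr2b and Adra2a were tested at means under 1 CPM. Without the filter on low counts P2ry13 and Htr2c were called too, with 0.534% of all genes called. With a mean count of at least 10 as the filter Hrh1 was called as well, with 1.10% of all genes called. Unadjusted p-values lay under 0.05 for 7 of the 42 tested members, against 7.04% of all tested genes. In descending order of evidence they were P2ry12, Agtr2, Adra2c, P2rx2, Npr3, Htr1d and Calcrl.

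The tested members were uneven as a set. The highest library exceeded the lowest by more than 3-fold in 10 of the 42, against 13.7% of all tested genes, and by less than 1.5-fold in 8, against 35.0%. The median was 2.32-fold, against 1.72-fold for all tested genes. The members were also lower, with a median level of 5.49 CPM against 18 CPM for all tested genes, and the part of their low level in this spread was not tested. The 8 steady members were Ednra, Ramp2, P2rx4, Adora1, Htr1b, Chrm3, Ramp3 and Hrh2. Library 1 was the lowest for 20 of the 42, against 40.3% of all tested genes, and library 3 the highest for 15, against 27.5%.

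Library 1 had lower values for genes of low GC content, and the receptors shared this. For the 9 tested members under 45% GC the median log2 difference of library 1 from the mean of the others was -1.39, against -0.84 for all tested genes of that class. For the 22 members between 45% and 55% it was -0.27, against 0.07, and for the 11 at or above 55% it was 0.12, against 0.43. Calcrl, with a GC content of 37.8%, was at -1.52 on this scale, Agtr2 (39.2%) at -1.57 and Npr3 (44.0%) at -1.39. P2rx2, at 55.5% GC, was at -2.34 and so lay outside the trend. P2ry12 was still called when counts were corrected for GC content and gene length (edgeR adjusted p = 7.66e-06).

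**Figure D4:**
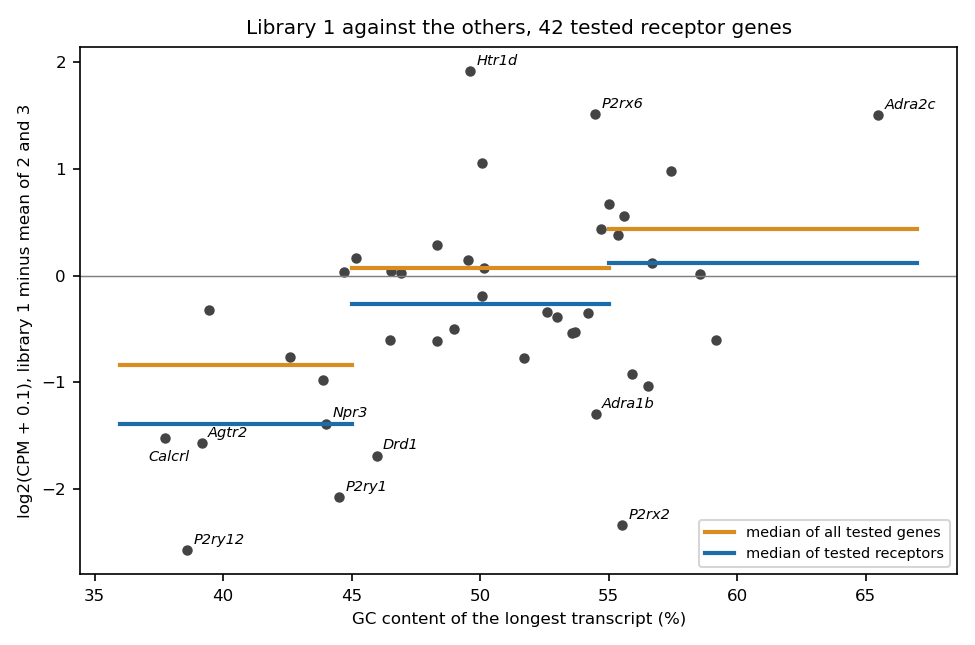
Difference in log2(CPM + 0.1) of library 1 from the mean of libraries 2 and 3 for the 42 tested receptor genes, by GC content of the longest transcript. The blue lines are medians of the receptors and the orange lines medians of all tested genes within 3 GC classes, and both rise from left to right.

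Markers of other cells also differed between libraries, some in another pattern than P2ry12, P2ry13 and Htr2c. Of 14 macrophage and microglia genes 12 were tested and 7 were called by the same test. Csf1r was at 1.16, 31.5 and 86.9 CPM, C1qa at 2.02, 31.4 and 90.5 CPM and Cx3cr1 at 1.21, 6.01 and 30.9 CPM, each highest in library 3. Of the 14 genes 12 were highest in library 3 and 11 were lowest in library 1. Tmem119, at 810, 596 and 543 CPM, and Sall1, at 5.66, 5.68 and 5.01 CPM, were lowest in library 3, and Lyve1, at 13.8, 8.43 and 15.5 CPM, was lowest in library 2. Summed over the list the levels were 945, 1075 and 1548 CPM. No gene of the list was at 0 in all libraries. From library 2 to library 3 the ratio was 14.3-fold for P2ry12 and 5.37-fold for P2ry13, beside 5.15-fold for Cx3cr1, 2.88-fold for C1qa and 2.76-fold for Csf1r. From library 1 to library 2 P2ry12 went only from 0.961 to 1.61 CPM. Over the same step Csf1r went from 1.16 to 31.5 CPM, C1qa from 2.02 to 31.4 CPM and Cx3cr1 from 1.21 to 6.01 CPM. Of 7 choroid plexus genes 4 were called, and all 7 were lowest in library 1, as was Htr2c. Ttr was at 32.6, 1593 and 2529 CPM and Kl at 2.02, 27.3 and 33.8 CPM, while Clic6 (13.6, 43.3 and 41.3 CPM) and Otx2 (17.8, 35.7 and 30.8 CPM) were highest in library 2. Of 8 lymphocyte genes 2 were tested and both were called, Cd79a at 1.21, 20.1 and 20.7 CPM and Cd79b at 0.809, 14.8 and 16.6 CPM. The lymphocyte list summed to 3.03, 62.3 and 73.3 CPM, with the T cell genes Cd3e, Cd3d and Cd8a at 12 counts or fewer in each library. Of 7 platelet genes 5 were tested and 0 were called by edgeR's goodness-of-fit test, with 1 at an unadjusted p under 0.05. The platelet list summed to 23.8, 17.7 and 37.8 CPM. Pf4 was at 2.43, 8.43 and 20.6 CPM, and of the 7 genes 3 were highest in library 3 and 4 in library 1. The part of these cells in the receptor levels was not tested.

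**Figure D5:**
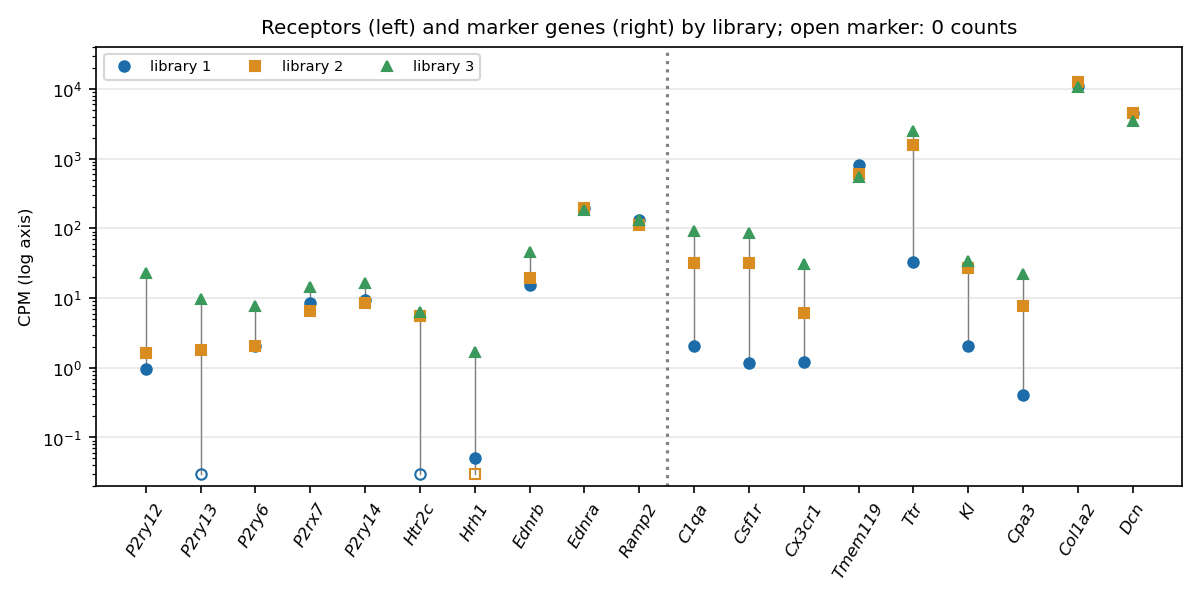
CPM on a log axis by library for 10 receptor genes, left of the dotted line, and 9 marker genes of macrophages and microglia (C1qa, Csf1r, Cx3cr1, Tmem119), choroid plexus (Ttr, Kl), mast cells (Cpa3) and fibroblasts (Col1a2, Dcn). P2ry12, P2ry13 and Hrh1 are highest in library 3, Htr2c is at 0 in library 1, and Ednra and Ramp2 nearly coincide across libraries, as do Col1a2 and Dcn.

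P2ry12 (ENSMUSG00000036353.13, chromosome 3, 59216272 to 59262871, minus strand) and P2ry13 (ENSMUSG00000036362.2, chromosome 3, 59207892 to 59210882, minus strand) lie side by side and were both highest in library 3, so their promoters are shown. The windows are chr3:59262986-59263235 and chr3:59210883-59211132 of GRCm38.p6, both on the minus strand, with capitals as above.
P2ry12: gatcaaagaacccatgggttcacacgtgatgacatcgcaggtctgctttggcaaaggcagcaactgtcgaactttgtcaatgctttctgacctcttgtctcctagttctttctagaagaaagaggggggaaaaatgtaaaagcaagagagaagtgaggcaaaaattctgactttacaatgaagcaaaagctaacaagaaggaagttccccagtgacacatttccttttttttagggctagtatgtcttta
P2ry13: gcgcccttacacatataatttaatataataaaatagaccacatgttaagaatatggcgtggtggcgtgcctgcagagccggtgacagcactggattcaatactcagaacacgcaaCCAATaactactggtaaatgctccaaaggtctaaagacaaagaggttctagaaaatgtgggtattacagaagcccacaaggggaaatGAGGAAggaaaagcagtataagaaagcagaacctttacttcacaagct
P2ry12 held none of the letters searched. P2ry13 held CCAAT starting 135 bases before the start and GAGGAA starting 48 bases before it, and 23.1% of all promoters held GAGGAA. Both windows had a GC content of 41.6%, against a median of 52% for all promoters. P2ry14, on the same strand of the same chromosome at 59113855 to 59153618, was spread less widely than its neighbours.

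Promoters were found in RefSeq for 56 of the 74 members. GGGCGG was present in 12 of the 31 promoters of members with at least 1 CPM and in 13 of the 25 promoters of members under it, against 32.9% of all promoters. CCAAT was present in 14 of 31 and 7 of 25, against 34.5%, and TATAAA in 2 of 31 and 1 of 25, against 3504 of all 27025 promoters. GAGGAA was present in 8 of 31 and 10 of 25, and TGACG in 3 of 31 and 3 of 25. The median number of CpG dinucleotides was 6 in the first group, 9 in the second and 6 over all promoters.

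Of the wider pathway, 19 of 36 ligand genes and ligand-making enzymes had a mean of at least 1 CPM, led per kilobase by Adm, Nppc and Ece1. Of 31 clearance genes 23 did, led by Alpl at 4876, 3349 and 2568 CPM, the nucleoside transporter Slc29a1 at 392, 233 and 349 CPM and Entpd2, which removes phosphate from extracellular ATP, at 133, 118 and 139 CPM. Alpl dephosphorylates extracellular nucleotides to adenosine among other substrates. Of 13 G protein alpha subunits 12 were at 1 CPM or more, led by Gnai2 (152, 97.2 and 115 CPM), Gnai3 (32.8, 115 and 149 CPM) and Gnas (376, 283 and 193 CPM). The Gq subunits Gna11 and Gnaq were at 81.7 ± 31.1 and 40.5 ± 13.5 CPM. Of 23 effectors 21 were at 1 CPM or more, led by Pde1a, Plcb4 and Adcy7 at 54.7 ± 15.0, 68.2 ± 16.7 and 45 ± 4.95 CPM. Of 12 desensitisation genes 11 were, led by Rgs4 (33.4, 81.1 and 190 CPM), Rgs2 and Rgs16. edgeR's goodness-of-fit test called 0 genes of these 5 lists, with 4 of 19 ligand genes, 6 of 23 clearance genes, 1 of 12 alpha subunits, 1 of 22 effectors and 1 of 11 desensitisation genes at an unadjusted p under 0.05, against 7.04% of all tested genes.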

How the data were processed

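Sorted leptomeningeal cells of 3 libraries were sequenced after low-input cDNA amplification, per the labels' protocols. The deposited table holds raw counts per gene. HTSeq 0.5.3, DESeq2 1.22.1 and the build mm10 are named in the submitters' processing notes, without their roles. The aligner, annotation release and strand setting are not given in the sources used here. Counter rows naming no gene held 45.6%, 39.1% and 39.6% of libraries 1 to 3 and were left out. Reads with several positions are among them, so near-identical genes may be undercounted, and without known strand, overlapping genes cannot be told apart; 13 of the 42 members with at least 1 CPM share exon bases with another gene.

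edgeR 4.0.16 (R 4.3.3) gave TMM-scaled library sizes, and its filterByExpr function, with 10 as the minimum count, chose the genes to test. Exon lengths, GC content and coordinates came from GENCODE M21 on GRCm38, which matched 98.9% of gene rows. The edgeR goodness-of-fit test used a dispersion trend over genes, and its p-values were adjusted by Benjamini-Hochberg. In simulated counts of 14409 genes, this test of the 3 libraries recovered 114 of 200 genes changed 8-fold in 1 library, with 6 false calls, and 181 changed 32-fold. The simulated counts were drawn exactly at the dispersion trend, so false calls may be more frequent in real data. The changed genes came from all tested genes, so recovery at the lower levels of the receptors was not measured. Pairs used log2(RPKM + 0.1). Promoters are RefSeq's, GRCm38.p6, the first listed for each gene. Named members were those with a mean of at least 1 CPM or called variable, and in each pathway list the 3 highest per kilobase. Ligand genes beyond that rule, other members' means and single marker genes were named after their values were seen. The values of 1 member and its pair are not reported here. The members and lists were chosen with earlier results of these data known. Alternatives were other size factors, filters, lengths, pseudocounts and dispersions, removal of GC and length trends (mgcv 1.9.3), and each library left out; coding transcript length was added after seeing the data.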

Additional observations from a re-analysis of the deposited data

How the results depend on the processing

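The number of receptors with at least 1 CPM (42) was 24 at a threshold of 5 CPM and moved by no more than 1.5 times under the other alternatives run. The number called variable (1) was 3 without a filter on low counts and 4 with a mean count of at least 10, which admit genes at 0 in a library, where 0.534% and 1.10% of all genes were called, and 1 under the other alternatives with all libraries. When each replicate was left out it ranged from 0 to 1, and it was 0 without library 3. The edgeR adjusted p of P2ry12 was 1.42e-05 without library 1, 0.0134 without library 2 and 0.998 without library 3, and lay between 7.66e-06 and 0.000464 under the alternatives with all libraries.

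Of 136 alternative values for the 17 pairs, 3 reversed, all for P2ry14 minus P2ry6 (-0.16): 1.74 with no division by length, 1.91 with coding transcript length, and a range of -0.35 to 0.15 over the sets lacking 1 replicate, with 0.15 without library 3. All annotated exons of P2ry14 come to 11059 bases and its coding transcripts to 1684. The size of some other pair differences also depended on the length used. Under coding transcript length Npr3 minus Npr1 went from 3.34 to 5.06 and Ramp2 minus Ramp3 from 4.17 to 5.68. Npr2 minus Npr1 went from 3.0 to 3.17, and F2r minus F2rl1 stayed at 1.32. With coding transcript length the shares of the summed level were 39.6% for accessory proteins, 26.0% for Gq, 12.4% for the clearance receptor, 5.38% for Gs and 7.47% for cation channels; with no division by length accessory proteins held 18.7% and the clearance receptor 13.9%. Of the 42 members with a mean of at least 1 CPM, 10 moved in mean CPM by over 1.5 times when 1 library was left out. Members under 1 CPM are not in this count. Without library 3 P2ry12 went from 8.57 to 1.27, P2ry13 from 3.78 to 0.882, P2ry6 from 3.93 to 2.05, Ednrb from 26.8 to 17.2, Adora2b from 1.11 to 0.466 and P2rx1 from 1.19 to 0.748. Without library 1 P2ry13 went to 5.84, Htr2c from 3.97 to 6.13, Htr1d from 2.25 to 1.16 and P2rx6 from 5.84 to 3.87, and without library 2 Agtr2 went from 5.28 to 2.53. Other size factors moved the mean of none of these 42 members by as much. No comparison of groups, paired or unpaired, was possible because every library belonged to the vehicle group. Depth limits genes near 0.152 CPM in library 1.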
